A study of Mus musculus with 6 samples.

Results

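The genes described here are Esrp1, its paralog Esrp2, a group of genes with exons known to respond to ESRP proteins (Fgfr2, Cd44, Ctnnd1, Enah and Arhgef11) and further regulators of alternative exons (Rbfox2, Mbnl1 and Mbnl2). They are 10 of the 53458 genes in the data. Esrp1 was selected on its lower gene level in TKO-2i in these libraries, and the other members were chosen by name around it with that result known. Gene levels in TKO-2i and TKO-serum are therefore given as a description, and tests are given for the shares of transcripts and the inclusion of exons, which were not used to choose the genes.

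Stranded poly(A) RNA was sequenced from TKO mESCs, mouse embryonic stem cells that lack Dnmt1, Dnmt3a and Dnmt3b (Dnmt1-/-, Dnmt3a-/-, Dnmt3b-/-). The line derives from male J1 cells and was grown without feeder cells on gelatin, so that a single line stands for the genotype. The 3 TKO-2i libraries came from cells in N2B27 medium with the MEK inhibitor PD0325901 at 1 µM, the GSK3 inhibitor CHIR99021 at 3 µM and LIF at 1000 U/ml. The 3 TKO-serum libraries came from cells in DMEM with 15% FCS and LIF at 500 U/ml, so serum, basal medium, inhibitors and LIF dose changed together and cannot be told apart. Total estimated counts were 46228700, 44180642 and 43896549 in TKO-2i replicates 1, 2 and 3 and 38274042, 51932739 and 44827609 in TKO-serum replicates 1, 2 and 3. Values below are listed in that order of replicates. Levels are in TPM, a scale that corrects for transcript length and library size.

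ESRP proteins bind GU-rich RNA near alternative exons and maintain the splice forms typical of epithelial cells. Where they are low, as in mesenchymal cells, transcripts of the same genes carry other exons, and proteins such as FGFR2, CD44, p120-catenin and Mena then differ in ligand binding, adhesion or motility. RBFOX and MBNL proteins control other sets of exons, and some targets are shared.

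Among the regulators, Esrp1 was much higher in TKO-serum and under 1 TPM in TKO-2i. Esrp1 (ENSMUSG00000040728; GRCm38 chromosome 4, 11331933 to 11386783) had 0.684, 0.806 and 0.624 TPM in TKO-2i and 24.6, 27.5 and 26.0 TPM in TKO-serum. These levels rest on 78, 90 and 75 estimated counts in TKO-2i and on 2378, 3449 and 2908 in TKO-serum. All TKO-serum libraries were far above all TKO-2i libraries, with means of 0.705 ± 0.0928 and 26.0 ± 1.45 TPM (SD, n = 3 each), a ratio of 36.9. The log2 fold change of TKO-2i against TKO-serum was -5.09 (standard error 0.08), and 169 of the 18190 genes tested had a lower one. In bulk RNA, a smaller number of cells with Esrp1 transcripts and less Esrp1 RNA per cell cannot be told apart.

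The paralog Esrp2, which acts on largely the same exons, differed much less. Esrp2 (ENSMUSG00000084128; chromosome 8, 106130319 to 106136974) had 5.80, 5.78 and 5.44 TPM in TKO-2i and 6.78, 8.94 and 9.06 TPM in TKO-serum. The groups did not overlap, and the log2 fold change was -0.52 (standard error 0.07). The summed level of both genes was 6.49, 6.58 and 6.06 TPM in TKO-2i and 31.3, 36.4 and 35.1 TPM in TKO-serum. Esrp2 made up 89.4%, 87.8% and 89.7% of this sum in TKO-2i and 21.6%, 24.6% and 25.8% in TKO-serum. TKO-2i libraries thus kept a summed ESRP transcript level of 6.38 ± 0.277 TPM, mostly Esrp2, against 34.3 ± 2.62 TPM, mostly Esrp1, in TKO-serum.

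Genes known to control transcription of Esrp genes were read as a list. Of 9 such genes, 5 passed the gene-level test (quasi-likelihood F test in edgeR, Benjamini-Hochberg adjusted p under 0.05), 1 higher and 4 lower in TKO-2i, and their median log2 fold change was 0.00, against 0.01 over all genes tested, of which 62.5% passed. Grhl2, a transcription factor that maintains epithelial genes, had 4.95, 5.33 and 5.01 TPM in TKO-2i and 17.5, 20.7 and 20.1 TPM in TKO-serum, with no overlap and a log2 fold change of -2.07. Ovol1, which represses Zeb genes, was at 0.0627, 0.0837 and 0.0750 TPM in TKO-2i and at 1.08, 0.899 and 0.934 TPM in TKO-serum. The repressor Zeb1 had 4.67 ± 0.552 TPM in TKO-2i and 4.50 ± 0.215 TPM in TKO-serum, with overlapping libraries. Its log2 fold change of 0.32 passed the test, and was 0.04 with an adjusted p-value of 0.763 when limma was run on log2(TPM + 1), against 0.000806 to 0.0299 with the other alternatives (edgeR or DESeq2, all with Benjamini-Hochberg adjustment). Zeb2 was under 1 TPM in all libraries and was lower in TKO-2i (log2 fold change -2.48), as was Twist1, which fell from 6.75 ± 0.439 to 2.20 ± 0.343 TPM. Snai1, Snai2, Grhl3 and Ovol2 did not pass the test, and the mean levels of Grhl3 were 13.8 and 13.4 TPM.

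**Figure D1:**
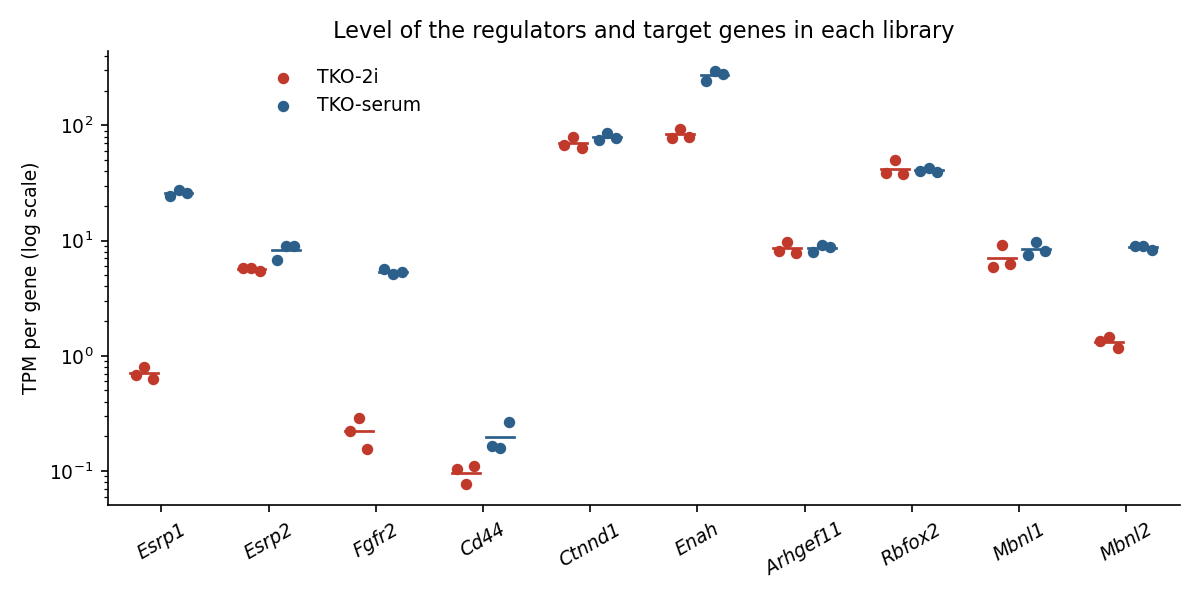
Level of each gene in TPM (log axis) in the 3 TKO-2i libraries (red) and the 3 TKO-serum libraries (blue). Points are libraries and horizontal lines are group means. Esrp1, Fgfr2, Enah and Mbnl2 are separated widely between the media, whereas the points of Ctnnd1, Arhgef11, Rbfox2 and Mbnl1 overlap.

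The target genes ranged from hardly detected to abundant. Fgfr2, a receptor for fibroblast growth factors (ENSMUSG00000030849; chromosome 7, 130162451 to 133123350), had 0.221, 0.291 and 0.155 TPM in TKO-2i and 5.67, 5.09 and 5.29 TPM in TKO-serum. Cd44, a hyaluronan receptor (ENSMUSG00000005087; chromosome 2, 102811141 to 102901665), stayed under 1 TPM in all libraries, with 0.103, 0.0763 and 0.111 TPM in TKO-2i and 0.164, 0.159 and 0.268 TPM in TKO-serum. Neither gene had overlapping groups, and the log2 fold changes were -4.67 (standard error 0.13) for Fgfr2 and -1.10 (standard error 0.25) for Cd44. Only 13, 9 and 10 estimated counts of Cd44 were available in TKO-2i, and 22, 26 and 24 in TKO-serum.

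Enah encodes Mena, a protein that promotes the elongation of actin filaments (ENSMUSG00000022995; chromosome 1, 181896384 to 182019990). It had 77.0, 93.3 and 79.9 TPM in TKO-2i and 245, 294 and 278 TPM in TKO-serum. All TKO-serum libraries were higher, and the log2 fold change was -1.66 (standard error 0.07). Ctnnd1 encodes p120-catenin, which stabilizes cadherins at the cell surface (ENSMUSG00000034101; chromosome 2, 84600071 to 84650765), and had 67.0, 79.0 and 63.9 TPM in TKO-2i and 74.8, 85.3 and 77.9 TPM in TKO-serum. Arhgef11, a guanine nucleotide exchange factor (ENSMUSG00000041977; chromosome 3, 87617559 to 87738034), had 8.11, 9.80 and 7.77 TPM in TKO-2i and 7.93, 9.14 and 8.79 TPM in TKO-serum. The groups of Ctnnd1 and Arhgef11 overlapped, and their log2 fold changes were -0.09 and 0.08 (standard error 0.05 each). Shares of the transcripts of these abundant genes could thus be compared at similar total levels for Ctnnd1 and Arhgef11, and at a 3.27-fold higher level in TKO-serum for Enah.

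Of the other splicing regulators, Mbnl2 differed between media and Rbfox2 and Mbnl1 overlapped. Mbnl2, a regulator of exons that change in development (ENSMUSG00000022139; chromosome 14, 120275669 to 120431697), had 1.35, 1.45 and 1.16 TPM in TKO-2i and 8.92, 8.99 and 8.35 TPM in TKO-serum, with a log2 fold change of -2.48 (standard error 0.08). Its paralog Mbnl1 (ENSMUSG00000027763; chromosome 3, 60472830 to 60629750) had 5.85, 9.15 and 6.21 TPM in TKO-2i and 7.47, 9.68 and 8.10 TPM in TKO-serum, and its log2 fold change was -0.11 (standard error 0.12). The overlap of Mbnl1 rests on TKO-2i replicate 2, without which the log2 fold change was -0.25 and the gene was called, and it was -0.03 without TKO-serum replicate 2. The sum of Mbnl1, Mbnl2 and Mbnl3 was 9.42, 13.1 and 9.69 TPM in TKO-2i and 19.4, 21.7 and 19.4 TPM in TKO-serum, and Mbnl2 held 12.4% ± 1.68 and 43.5% ± 2.29 of it. Rbfox2, which binds TGCATG (ENSMUSG00000033565; chromosome 15, 77078990 to 77307004), had 38.9, 49.9 and 37.9 TPM in TKO-2i and 40.1, 42.8 and 39.8 TPM in TKO-serum, with a log2 fold change of 0.17 (standard error 0.07). It made up between 97.1% and 99.5% of the summed TPM of Rbfox1, Rbfox2 and Rbfox3 in all libraries.

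By mean TPM in TKO-serum, the order of the 10 genes was Enah, Ctnnd1, Rbfox2, Esrp1, Mbnl2, Arhgef11, Mbnl1, Esrp2, Fgfr2 and Cd44. The means of Mbnl2, Arhgef11, Mbnl1 and Esrp2, between 8.26 and 8.75 TPM, lay within their spread. In TKO-2i the order was Enah, Ctnnd1, Rbfox2, Arhgef11, Mbnl1, Esrp2, Mbnl2, Esrp1, Fgfr2 and Cd44. There, Enah and Ctnnd1 overlapped, as did Arhgef11 and Mbnl1, whereas each Mbnl1 value was above each Esrp2 value. At gene level, 6 of the 10 genes were called by the same edgeR test with Benjamini-Hochberg adjustment, all lower in TKO-2i, where 62.5% of the 18190 genes tested were called, 30.6% as lower and 31.9% as higher. Since the genes were chosen with this contrast known, nothing is read from that count. All 10 passed the filter on low counts.

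The genes with the most similar pattern were taken by the smallest root mean square distance between log2(TPM + 1) values centred on their mean over the 6 libraries. They were AU015836, Peg10, Id2, Coch and Myrf, with distances of 0.0548, 0.0799, 0.0913, 0.127 and 0.176. The closest, AU015836, had means of 0.168 ± 0.0176 TPM in TKO-2i and 18.5 ± 1.55 TPM in TKO-serum. Id2, an inhibitor of helix-loop-helix transcription factors, had 1.90, 1.75 and 1.79 TPM in TKO-2i and 46.8, 44.9 and 44.6 TPM in TKO-serum.

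The isoform question was whether a transcript changed by more or less than the other transcripts of its gene. Of 154 annotated transcripts of the 10 genes, 56 could be tested, and 3 were called (diffSpliceDGE in edgeR, Benjamini-Hochberg adjusted over all transcripts tested), against 1.29% of the 40841 transcripts tested over all genes. They were Enah-202, Enah-203 and Ctnnd1-201. With a Simes test per gene, the adjusted p-values of Enah and Ctnnd1 were 1.28e-13 and 0.0156 (edgeR, Benjamini-Hochberg adjustment over all genes).

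Enah-202 held 7.74%, 6.84% and 8.37% of the gene's TPM in TKO-2i and 34.4%, 30.6% and 33.9% in TKO-serum. Enah-203 held 45.5%, 44.6% and 40.5% in TKO-2i and 23.3%, 21.8% and 17.0% in TKO-serum. The main coding transcript was thus Enah-203 in each TKO-2i library and Enah-202 in each TKO-serum library, with no overlap between media for either. Relative to the other transcripts of the gene, Enah-202 was lower in TKO-2i by a log2 change of -2.05 (adjusted p = 3.73e-14) and Enah-203 higher by 1.14 (adjusted p = 1.41e-06; edgeR's diffSpliceDGE with Benjamini-Hochberg adjustment). With each library left out in turn, the adjusted p-values lay between 2.69e-11 and 3.77e-08 for Enah-202 and between 4.11e-06 and 0.00102 for Enah-203 (edgeR, Benjamini-Hochberg adjustment). They were much larger with limma on the log2 odds of the share, at 0.00453 for Enah-202 and 0.0301 for Enah-203 (Benjamini-Hochberg adjustment). Enah-211, a longer coding transcript, held between 14.3% and 16.4% in all libraries and showed no such difference.

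**Figure D2:**
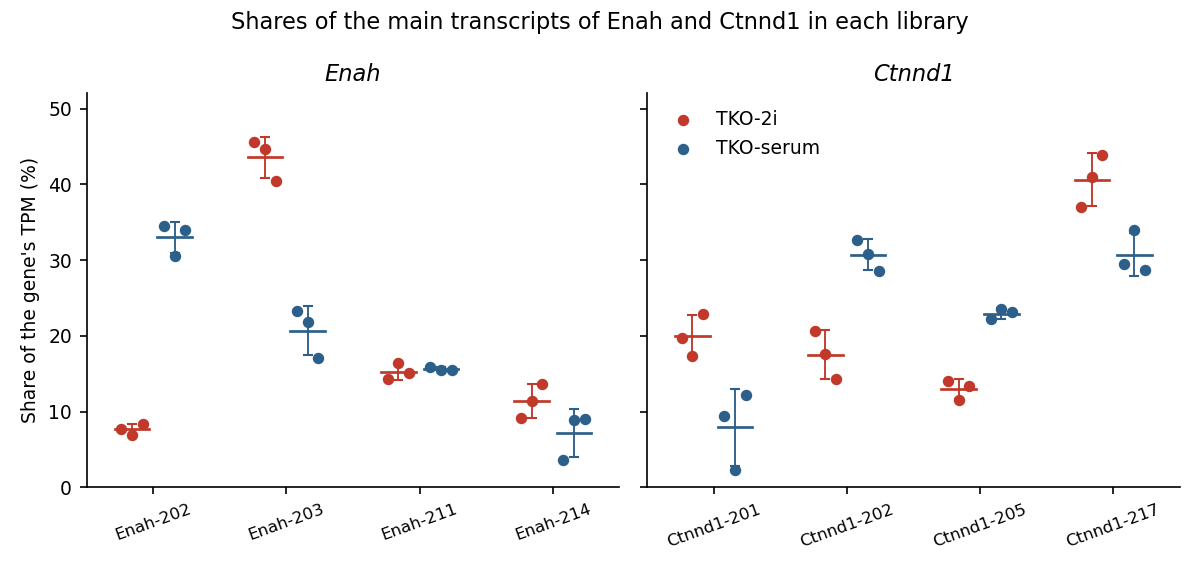
Share of the gene's TPM (%) held by each transcript of Enah (left) and Ctnnd1 (right) with a mean share of at least 10% in either medium. Points are the 3 TKO-2i (red) and 3 TKO-serum (blue) libraries, and lines with bars are means ± SD. Enah-202 and Enah-203 change places between media, and the Ctnnd1 transcripts are separated by smaller steps.

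The exon that sets Enah-202 apart inside the coding sequence is a 63-base exon known as 11a, which epithelial cells include and mesenchymal cells skip. Enah-202 and Enah-203 also differ in their first and last exons and in a 305-base exon, of which Enah-203 holds 132 and 71 bases. Inclusion of an exon was taken as the TPM of transcripts that include it, in percent of the TPM of those that include it and those that skip it between the same neighbouring exons. The 63-base exon (chr1:181911597-181911659, minus strand, wholly coding) was included at 10.3%, 8.81% and 11.3% in TKO-2i and at 41.7%, 40.6% and 45.3% in TKO-serum. No TKO-2i library came near the TKO-serum range, with means of 10.1% ± 1.27 and 42.5% ± 2.43 (SD, n = 3 each). The log2 ratio of including to skipping TPM was lower in TKO-2i by -2.70 (standard error 0.19, adjusted p = 0.0112, limma with Benjamini-Hochberg adjustment over 11251 exons). It ranked 11 among these exons by p-value. The adjusted p-value was 0.0612, 0.0507 and 0.0643 without TKO-2i replicate 1, TKO-serum replicate 1 and TKO-serum replicate 2, respectively, while the log2 change lay between -2.76 and -2.72 in these fits, and it ranged from 0.000704 to 0.221 over all alternatives (limma, Benjamini-Hochberg adjustment). A single annotated transcript, Enah-202, carries the exon, so the inclusion values and the share of Enah-202 rest on the same reads.

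Over the 10 genes, 35 alternative exons were tested, and the Enah exon was the 1 called, against 0.764% of the 11251 exons tested in the genome. The counts of exons include pairs of exons that exclude each other, 607 among the 11251, and some exons entered more than once. Many of these exons share transcripts, so that they are not independent of each other. In 26 of the 35, mean inclusion differed by less than 5 percentage points between media, but 5 of these had only 1 form in all libraries and could show no difference in inclusion. The groups did not overlap for 10 exons, of which 4 were in Enah, 3 in Ctnnd1, 2 in Rbfox2 and 1 in Mbnl2, where they did not overlap for 19.1% of all exons tested. The count of calls depends on the pseudocount: with 1 TPM in place of 0.1 TPM, 11 of the 35 were called, against 13.6% of all exons, and 1 of the 11 had a single form in all libraries.

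Among Ctnnd1 transcripts with a mean share of at least 10% in either medium, those with an 18-base exon held more of the gene in TKO-2i. Those without it held less. Ctnnd1-201 held 19.7%, 17.3% and 22.9% of the gene's TPM in TKO-2i and 9.40%, 2.28% and 12.1% in TKO-serum, a log2 change of 1.34 relative to the gene (adjusted p = 0.00679, edgeR's diffSpliceDGE with Benjamini-Hochberg adjustment). That call was lost without TKO-serum replicate 2, the library with the lowest share (adjusted p = 0.168, edgeR with Benjamini-Hochberg adjustment), and the range over the alternatives was 0.00396 to 0.233. The log2 change was 0.89 without TKO-serum replicate 2 and 1.78 without TKO-serum replicate 3. Ctnnd1-217, which also carries the exon, held 37.0%, 41.0% and 43.9% in TKO-2i and 29.5%, 34.0% and 28.7% in TKO-serum. Ctnnd1-202 and Ctnnd1-205 lack it, and held 17.5% ± 3.22 and 13.0% ± 1.27 in TKO-2i and 30.7% ± 2.06 and 22.9% ± 0.688 in TKO-serum. The groups of all of these transcripts were apart, although the adjusted p-values of Ctnnd1-202, Ctnnd1-205 and Ctnnd1-217 were 0.184, 0.202 and 1 in the same edgeR test with Benjamini-Hochberg adjustment.

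The 18-base exon is the one named exon C, which adds a few residues among the armadillo repeats of p120-catenin (chr2:84612532-84612549, minus strand, wholly coding). It was included at 63.2%, 67.8% and 70.6% in TKO-2i and at 43.1%, 41.4% and 45.6% in TKO-serum. The groups were well apart, with a difference of 23.8 percentage points. The log2 ratio was higher in TKO-2i by 1.42 (standard error 0.21), and the adjusted p-value of 0.0581 missed the threshold (limma, Benjamini-Hochberg adjustment). It was 0.0361 when both forms were required to reach a mean of 1 TPM, a filter chosen after seeing the data, with which 2 of 20 exons of the 10 genes were called, against 2.24% of all 4500 exons tested. With a library left out it lay between 0.113 and 0.176, and over all alternatives between 0.00559 and 0.229 (limma, Benjamini-Hochberg adjustment).

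Other Ctnnd1 exons gave smaller differences. A 289-base exon with the coding start (chr2:84624270-84624558), counted in the 3 transcripts that have the same neighbouring exons as those that skip it, was included at 79.2%, 82.4% and 79.9% in TKO-2i and at 72.5%, 72.8% and 69.4% in TKO-serum. Ctnnd1-201 also holds this exon, next to another exon, and is not in these values. The libraries did not overlap, and the adjusted p-value was 0.164 (limma, Benjamini-Hochberg adjustment), with a range of 0.0348, with a pseudocount of 1 TPM, to 0.323 over the alternatives. The 63-base exon A near the 3′ end of the coding sequence was included at 60.3% ± 2.62 in TKO-2i and 59.5% ± 4.18 in TKO-serum, and the 87-base exon B at 0.409% to 1.24% in all libraries.

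Fgfr2 carries the classical pair of ESRP-dependent exons, of which epithelial cells use IIIb and mesenchymal cells IIIc. Here IIIb is the exon nearer the 5′ end (148 bases, chr7:130199758-130199905, minus strand) and IIIc the next one (145 bases, chr7:130198419-130198563). In TKO-serum, transcripts with IIIc held 79.4%, 72.6% and 78.4% of the TPM of transcripts with either exon, from 285, 345 and 232 estimated counts against 65, 117 and 54 for IIIb. Both forms were thus present in TKO-serum, and IIIc was the larger in each library. The percentages leave out transcripts with neither exon, such as Fgfr2-221, which held 23.2%, 16.5% and 21.8% of the gene's TPM in TKO-serum. In TKO-2i the counts were 10, 6 and 14 for IIIc and 4, 5 and 0 for IIIb, too few for the test, and a difference in exon choice was not detectable at this depth. Cd44 had too few counts for any transcript or exon to be tested, and none of the exons of Esrp1 and Fgfr2 reached a mean of 1 TPM in TKO-2i. No alternative exon of Esrp2 was found in the annotation.

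For Esrp1 itself, Esrp1-204 held 74.0%, 74.7% and 82.1% of the gene's TPM in TKO-2i and 46.9%, 50.0% and 51.2% in TKO-serum. Esrp1-203 held 4.41%, 25.3% and 17.9% in TKO-2i and 35.1%, 35.5% and 34.3% in TKO-serum. The groups were apart for both transcripts, and neither was called (adjusted p = 0.796 and 0.261, edgeR's diffSpliceDGE with Benjamini-Hochberg adjustment), with only 4, 24 and 14 estimated counts of Esrp1-203 in TKO-2i. Over the alternatives, the adjusted p-values (Benjamini-Hochberg, edgeR or limma) lay between 0.0339, without TKO-2i replicate 2, and 0.743 for Esrp1-203, and between 0.0292, with limma on the log2 odds of the share, and 1 for Esrp1-204.

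Arhgef11, Rbfox2 and Mbnl1, with levels that overlapped between media, had no called transcript or exon. The 30-base exon of Arhgef11 (chr3:87718229-87718258) was included at 25.7% to 30.2% and its 120-base exon at 69.9% to 77.0% in all libraries. The 93-base exon of Rbfox2 (chr15:77105577-77105669), which encodes part of the RNA recognition motif, was included at 94.4% to 97.5% in all libraries. Of the Rbfox2 transcripts with the 43-base or the 40-base exon, which are known as muscle and brain exons and exclude each other, those with the 43-base exon held 5.85%, 5.20% and 7.50% in TKO-2i and 3.47%, 4.29% and 5.01% in TKO-serum (adjusted p = 0.328, limma with Benjamini-Hochberg adjustment). The Mbnl1 exon of 54 bases (chr3:60614683-60614736), known to direct the protein to the nucleus, was included at 67.9%, 50.2% and 63.9% in TKO-2i and at 63.3%, 58.4% and 63.3% in TKO-serum, and the 36-base exon at 35.5% to 46.9%. The spread among TKO-2i libraries was larger than the difference between media for the 54-base exon. In Mbnl2, a 95-base exon was included at 39.0% ± 7.77 in TKO-2i and 49.4% ± 4.05 in TKO-serum (adjusted p = 0.382, limma with Benjamini-Hochberg adjustment), from transcripts that summed to 1.28, 1.22 and 0.544 TPM in TKO-2i.

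**Figure D3:**
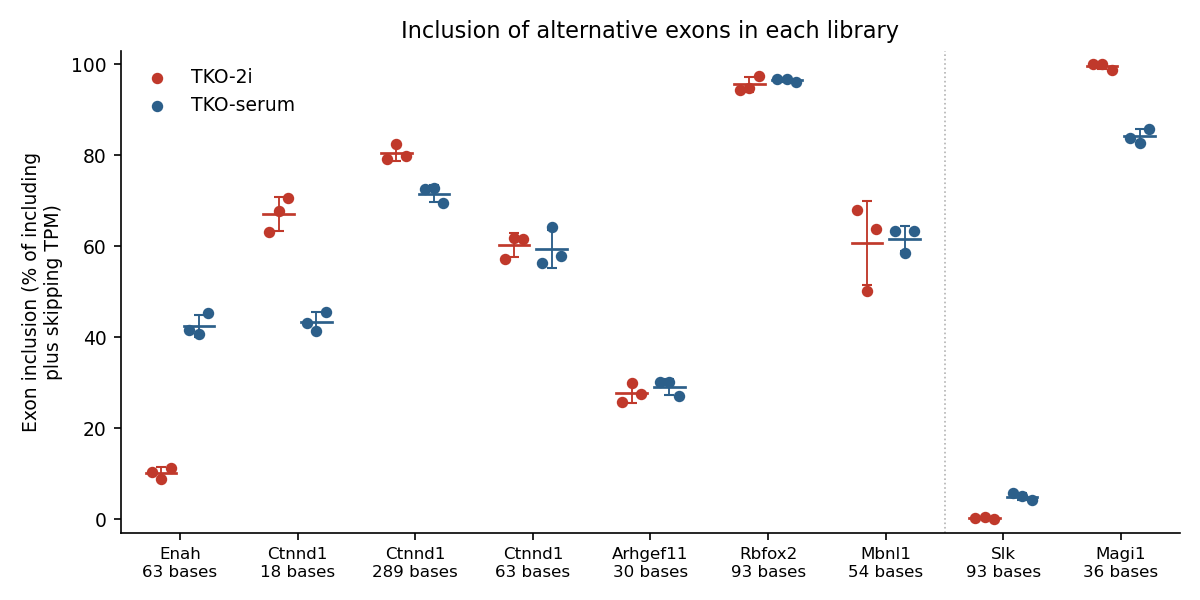
Exon inclusion in percent of including plus skipping TPM for named exons in the 3 TKO-2i (red) and 3 TKO-serum (blue) libraries. Lines with bars are means ± SD. Exons of the 10 genes are left of the dotted line and exons of other genes with epithelial and mesenchymal forms are right of it. The exons of Enah and Slk lie lower and those of Ctnnd1 (18 bases) and Magi1 higher in all TKO-2i libraries, while the exons drawn for Arhgef11, Rbfox2 (93 bases) and Mbnl1 overlap between media.

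A list of 26 further genes with exons known to differ between epithelial and mesenchymal cells was read in the same way. In 23 of these genes 76 alternative exons or pairs that exclude each other could be tested, and 3 were called (3.95%), against 0.764% of all exons tested. Exons of Magi1 and Slk were among them. Of 142 tested transcripts of the list 4 were called, Macf1-204, Magi1-201 and Slk-202 among them, against 1.29% of all transcripts.

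The 36-base exon of Magi1, a scaffold protein of tight junctions (chr6:93769508-93769543, minus strand, wholly coding), was included at 100%, 100% and 98.8% in TKO-2i and at 83.9%, 82.8% and 85.8% in TKO-serum (log2 ratio 2.89, standard error 0.29, adjusted p = 0.0230, limma with Benjamini-Hochberg adjustment). Magi1 transcripts without the exon had 0, 0 and 10 estimated counts in TKO-2i and 142, 203 and 149 in TKO-serum, so the size of the log2 ratio depends on the pseudocount (0.79 with 1 TPM). The 93-base exon of the kinase gene Slk (chr19:47627648-47627740, plus strand, wholly coding) was included at 0.324%, 0.417% and 0% in TKO-2i and at 5.64%, 5.02% and 4.12% in TKO-serum (log2 ratio -2.74, standard error 0.24, adjusted p = 0.0156, limma with Benjamini-Hochberg adjustment). Slk transcripts with the exon had 8, 12 and 0 estimated counts in TKO-2i and 93, 122 and 82 in TKO-serum. The Slk exon differed by only -4.68 percentage points, and so near to 0% the log2 ratio depends on the pseudocount (-0.96 with 1 TPM) and on the level of the gene. With each library left out in turn, the adjusted p-values (limma, Benjamini-Hochberg adjustment) lay between 0.0453 and 0.104 for Magi1. Those for Slk lay between 0.0497 and 0.0726. Both calls were also lost with all libraries when estimated counts replaced TPM (0.101 and 0.123). The same held with the replicate number as a block (0.225 and 0.221, limma with Benjamini-Hochberg adjustment), where no exon in the genome was called.

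The sequences of these exons are shown because they are the called exons described above and the 18-base exon of Ctnnd1, which missed the threshold, and they are given 5′ to 3′ on the sense strand as in the GENCODE M21 transcripts.
Enah 63-base exon: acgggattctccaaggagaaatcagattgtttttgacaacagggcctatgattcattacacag
Ctnnd1 18-base exon: atgagtggttctccagag
Magi1 36-base exon: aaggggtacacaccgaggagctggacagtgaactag
Slk 93-base exon: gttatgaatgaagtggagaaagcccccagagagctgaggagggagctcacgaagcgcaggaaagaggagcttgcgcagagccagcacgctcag
All have a length that is a multiple of 3 bases, so that including or skipping them keeps the reading frame. The sense strand of each was searched for TGGTGG, for GTGGTG and for GGTGGT, which are ESRP motifs that overlap each other, for the RBFOX motif TGCATG and for the MBNL motif TGCTT. None of these motifs was found in any of the exons, so no base is in capitals, and shorter or looser sites of these proteins were not searched. Of 1413 tested exons within 10 bases of the length of the Enah exon, 5.24% hold an ESRP motif, 1.34% TGCATG and 8.21% TGCTT. For the 1635 exons within 10 bases of the length of the Slk exon, the shares are 7.71%, 3.00% and 11.4%. They are 1.80%, 1.53% and 4.30% for the Magi1 exon and 0.522%, 0.522% and 1.83% for the Ctnnd1 exon. At such low shares, the lack of a motif says little for any of these exons, and least for those of Magi1 and Ctnnd1. Known sites often lie in the introns beside an exon, and those were not searched here.

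At gene level, 18 of the 26 genes of that list passed the test, 11 higher and 7 lower in TKO-2i, with a median log2 fold change of 0.04 against 0.01 over all genes tested (edgeR, Benjamini-Hochberg adjustment, 62.5% called). Fgfr3 fell from 1.21 ± 0.147 to 0.187 ± 0.0458 TPM and the transcription factor gene Grhl1 from 8.83 ± 0.563 to 2.39 ± 0.343 TPM in TKO-2i. Of 27 other splicing regulators 25 were tested and 18 called, 11 higher and 7 lower, with a median of 0.12. Rbm47, which acts with ESRP proteins on some exons, had 3.57, 5.11 and 2.98 TPM in TKO-2i and 5.75, 6.70 and 5.60 TPM in TKO-serum. The general factors Hnrnpf and Srsf2 were higher in TKO-2i by log2 fold changes of 0.48 and 0.44.

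Genes that define epithelial and mesenchymal cells did not move as blocks. Of 12 epithelial genes 9 were called, 4 higher and 5 lower in TKO-2i (median -0.14), and of 8 mesenchymal genes 6 were tested and called, 4 higher and 2 lower (median 0.27), where 62.5% of all genes tested were called and the median was 0.01. Of the mesenchymal genes called higher, Cdh2 and Spp1 lost the call with limma on log2(TPM + 1). Among epithelial genes, the adhesion molecule gene Epcam had 36.7, 38.3 and 35.0 TPM in TKO-2i and 110, 115 and 109 TPM in TKO-serum, and Cldn6 had 3.42 ± 0.286 and 35.6 ± 0.563 TPM. Krt8 went the other way, with 43.3 ± 1.68 TPM in TKO-2i and 13.7 ± 0.145 TPM in TKO-serum. Among mesenchymal genes, the 2 called lower in TKO-2i were the smooth muscle genes Tagln (log2 fold change -5.29) and Acta2. Acta2 had 0, 1 and 0 estimated counts in TKO-2i and 159, 188 and 163 in TKO-serum. Vim was higher, with 148, 143 and 157 TPM in TKO-2i and 93.4, 96.1 and 90.6 TPM in TKO-serum.

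Markers of other cell types were read because a few cells of another type could carry epithelial transcripts. The 6 mESC markers were high in all libraries, with Dppa5a the most abundant and sums of 5062, 4580 and 4573 TPM in TKO-2i and 5658, 5309 and 5420 TPM in TKO-serum. The 5 markers of differentiated epithelium were each under 1 TPM in all libraries, with Krt7 the most abundant and sums of 0.458, 0.423 and 0.456 TPM in TKO-2i and 1.47, 1.53 and 1.49 TPM in TKO-serum. The 9 fibroblast or feeder markers, led by Thy1, summed to 6.27, 7.00 and 6.15 TPM in TKO-2i and 7.58, 7.93 and 7.80 TPM in TKO-serum. The 6 markers of primitive endoderm, led by Gata4, summed to 4.56, 5.50 and 4.32 TPM in TKO-2i and 9.24, 10.6 and 11.6 TPM in TKO-serum. The 6 trophoblast markers, led by Tfap2c, summed to 42.3, 40.7 and 38.4 TPM in TKO-2i and 26.8, 27.5 and 25.7 TPM in TKO-serum. No marker was at 0 in all libraries, although Col3a1, Dcn, Postn, Foxa2 and Krt14 were at 0 in 1 or 2 TKO-2i libraries and Lum in 2 TKO-serum libraries. Each sum follows the most abundant genes of its list, and members of the mESC, fibroblast or feeder and trophoblast lists were called in both directions, while all called members of the primitive endoderm (5) and differentiated epithelium (2) lists were lower in TKO-2i. Their part in the result was not tested.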

How the data were processed

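The authors deposited, for each of the 6 libraries, estimated counts and TPM per mouse transcript in the columns that salmon writes. The quantifier, its version and its index are not given in the sources used here, and the submitters' processing notes name mm10. The study's methods describe Tophat, RPKM and DEseq, which cannot be repeated from these values. The deposited TPM values are scaled for transcript length and library, and the estimated counts of the authors are unscaled and divide shared reads between transcripts, an uncertainty that is not in the p-values and matters most for similar transcripts and short exons.

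GENCODE M21 (GRCm38) held the identifiers of 136176 of the 136288 transcripts (99.92%), which were summed per gene. Estimated counts were rounded. Genes were tested with edgeR 4.0.16 (R 4.3.3; filterByExpr, TMM, glmQLFit and glmQLFTest), transcript usage with diffSpliceDGE in edgeR, and exon inclusion with limma 3.58.1 (eBayes with trend) on the log2 ratio of including to skipping TPM with 0.1 TPM added, for exons with a mean of at least 1 TPM of including plus skipping transcripts in each condition. Condition was the only factor, with Benjamini-Hochberg adjustment over all features tested and a threshold of 0.05. Standard errors of gene log2 fold changes were derived from the F statistic. Exons were read from the annotation as internal exons that another transcript skips between the same splice sites, and as pairs that exclude each other. Tests were checked on simulated data, where the usage test made more false calls than its threshold allows, so a single usage call close to the threshold is uncertain.

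Alternatives were DESeq2 1.42.0, its size factors used with edgeR, a run without the count filter, limma on log2(TPM + 1), other pseudocounts, filters and units for transcripts and exons, the replicate number as a block, and each library left out in turn. Named were the 10 genes, their transcripts with a mean share of at least 10% and their tested exons, up to 6 called genes per list by absolute log2 fold change with a mean of at least 1 TPM, all regulators of Esrp genes, the 5 exons of the target list with the smallest p-value, the 5 genes most like Esrp1 and all markers. Of these, those that add to a comparison are described, and an item withheld for evaluation is not reported here. The members and lists were chosen with earlier results of these data known.

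The labels call the replicates biological, and no pair of libraries of the same medium agreed within counting noise. Replicate 2 stood furthest apart in both media. In TKO-2i its chi-square per gene was 48.1 against replicate 1 and 29.3 against replicate 3, while replicates 1 and 3 gave 7.51. The values in TKO-serum were 16.4, 11.2 and 4.78 in that order. Which of the sequencing pools held each library is not stated, so pools and media cannot be told apart. A level of 3 counts corresponds to between 0.0578 and 0.0784 CPM, which covers counting error only.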

Additional observations from a re-analysis of the deposited data

How the results depend on the processing

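The number of exons called depended on the processing. With the main settings it was 86, of which 59.3% were more included in TKO-2i. It was 1532 with a pseudocount of 1 TPM, 36 with at least 5 TPM (72.2% more included), 43 with estimated counts in place of TPM, and 101 of 4500 (76.2% more included) when both forms had to reach 1 TPM, an alternative chosen after seeing the data. Leaving out 1 library gave between 0 and 42 called exons, the 0 being without TKO-serum replicate 2 (limma, 1636 exons at an unadjusted p under 0.05). With the replicate number as a block it was 0 (limma, 1756 at an unadjusted p under 0.05), and the cause of these differences was not tested. Whether equal replicate numbers share a batch cannot be told from 3 libraries per medium. Deviations from group means correlated at 0.242, 0.329 and 0.014 for equal numbers 1, 2 and 3. The values for numbers 1 and 2 were the highest of any pair, whereas TKO-2i replicate 3 correlated best with TKO-serum replicate 1 (0.123). The block moved gene calls from 11368 to 12553 and usage calls from 527 to 468. Other gene and usage counts stayed within 10062 to 12579 and 456 to 678.

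Of 664 values for 62 genes, transcripts and exons under the alternatives, 622 kept direction and side of the threshold, 31 lost a call, 10 gained one and 1 was reversed, the log2 fold change of Arhgef11, at -0.0129 with limma on log2(TPM + 1). The calls of Enah-202 and Enah-203 held throughout (limma on the log2 odds of the share included). The call of Ctnnd1-201 was lost with that fit. Cd44, Zeb1, Cdh2 and Spp1 missed the threshold with limma, and Rbfox2 passed it with the block and Mbnl1 without TKO-2i replicate 2. The Enah, Magi1 and Slk exons lost their calls with the block (adjusted p of 0.221 to 0.225, limma with Benjamini-Hochberg adjustment), and Magi1 and Slk with estimated counts. Of the 86 called exons, 48, the Slk exon among them, differed by less than 5 percentage points. Near 0% or 100% inclusion, the log2 ratio with a pseudocount moves with the level of the gene. How many of the 48 this concerns was not tested. Depth limits Fgfr2, Cd44, Esrp1 and Mbnl2 isoforms in TKO-2i.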
